A study of Mus musculus with 9 samples.

Results

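Colonic tissue of mice with colitis induced by dextran sulfate sodium (DSS) was compared with colonic tissue of untreated mice, using the 3 DSS arrays and the 3 Control arrays, 6 of the 9 arrays of the series. All mice were male C57BL/6J animals, 10 weeks old. The DSS mice drank distilled water with 3% DSS for 7 days and then received normal saline by gavage from day 8 to day 14, while the Control mice drank distilled water without DSS and received the same gavage. The other 3 arrays came from DSS mice given 200 mg/kg PAMK, a polysaccharide of Atractylodes macrocephala, and entered only the normalization and the estimate of the spread. The comparison asks which transcripts of the colon are raised or lowered about a week after the end of DSS. Nothing in the labels says whether each RNA came from 1 mouse or from a pool, so p-values measure the spread between samples, the DSS+PAMK samples included.

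RNA of a sample carried the Cy3 dye and went onto an array of its own, with 166924 probes of 60 bases, designed for mRNAs, long noncoding RNAs and circular RNAs. Of the probe spots, 72.2%, 63.9% and 66.0% on Control arrays 1 to 3 and 57.4%, 62.5% and 66.8% on DSS arrays 1 to 3 exceeded background well, and 0 were saturated. Testing was limited to the 98505 probes that stood well above background on every Control array or on every DSS array. Of these, 81169 met the rule in both groups, 14482 through the Control arrays alone and 2854 through the DSS arrays alone. Values of genes below are log2 normalized intensities, given for arrays 1, 2 and 3 of a group in that order, and differences are DSS minus Control on the log2 scale with the standard error (SE) from limma. The SE pools the spread within every group, DSS+PAMK included, so it can be larger than the values printed for a gene imply. The intensities of different probes are not on a common scale, so genes are compared by their differences only. The Control arrays and DSS 1 shared slide 1, and DSS 2 and DSS 3 were on slide 2. With slide as a block, the difference therefore rests on DSS 1 against the Control arrays, and it is called the value within slide 1. With 3 arrays per group, the number of arrays limits the precision.

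DSS, a sulfated glucose polymer, injures the epithelial lining of the colon, so that bacteria reach the tissue below. Granulocytes and monocytes then enter the wall, epithelial cells secrete antimicrobial lectins, the liver and the inflamed tissue release acute-phase proteins, and fibroblasts and leukocytes secrete proteases that remodel the matrix. Goblet cells, which supply the mucus, and other secretory cells are known to be lost where crypts are damaged.

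Among the genes that could be named, those called higher in the DSS mice included antimicrobial lectins, acute-phase proteins and receptors of neutrophils and monocytes. Inducible nitric oxide synthase, interferon-induced genes, matrix metalloproteinases and the mast cell gene Cpa3 were also called higher. Those called lower included the mucosal pentraxins Mptx1 and Mptx2, intelectin 1, the sialyltransferase gene St3gal4, the lipase genes Pnliprp1 and Pnliprp2, and colipase. In bulk tissue, more cells of a type and more RNA per cell cannot be told apart, nor can fewer cells and less RNA per cell. The methods set the threshold at a 2-fold difference and an unadjusted p of 0.05, and there limma called 1947 probes higher (1.977% of the tested probes) and 1052 lower (1.068%) in DSS. Of the probes called higher, 280 had a fitted difference of at least 4 fold and 33 of at least 16 fold, and of those called lower, 66 and 11, counts that take undetected groups at their fitted values. When p was adjusted by Benjamini-Hochberg over the 98505 probes, 172 passed with a higher signal (0.1746%) and 16 with a lower signal (0.01624%), with 0.0333 as the smallest adjusted p. The words rose and fell are used below for genes that passed this adjustment, and the words called higher and called lower for the threshold of the methods.

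**Figure D1:**
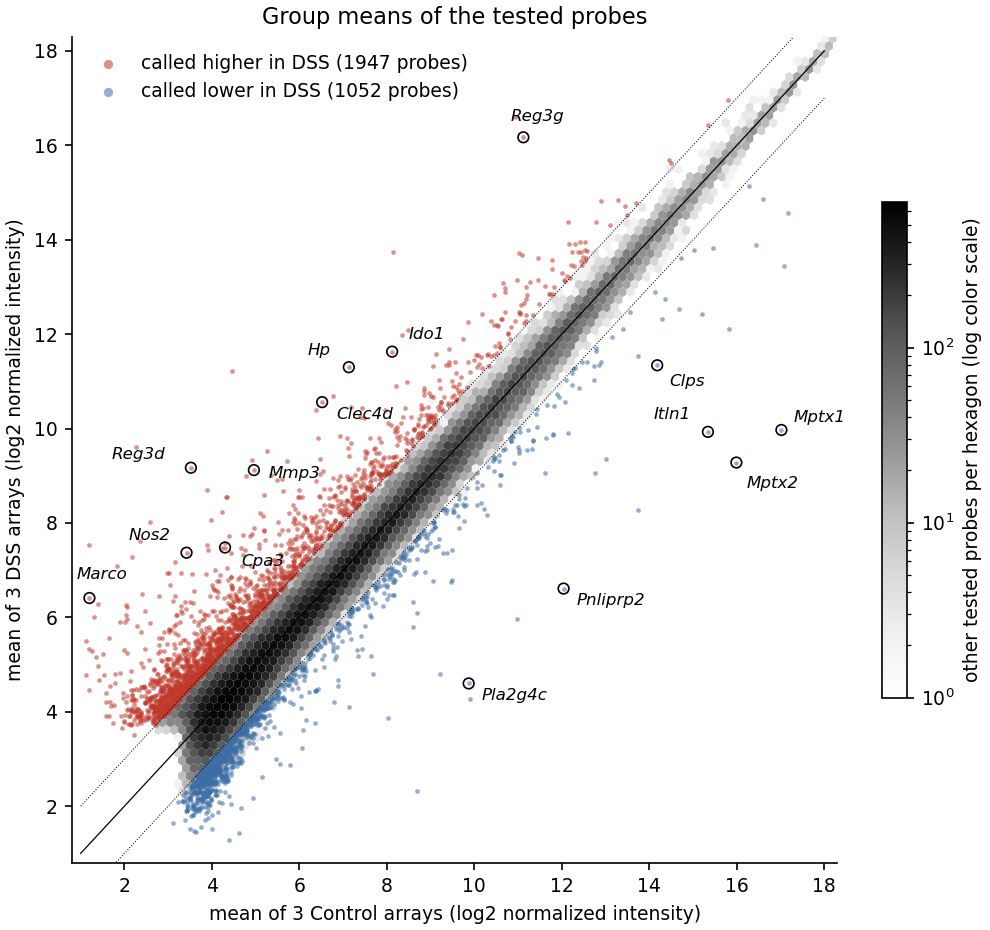
Mean log2 normalized intensity of each tested probe on the 3 Control arrays (x axis) and the 3 DSS arrays (y axis). Red and blue points are the 1947 probes called higher and the 1052 called lower, grey hexagons count the other probes, the solid line marks equal means, dotted lines a 2-fold difference, and circles named genes such as Mptx1, which lay 7.05 below the line.

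All 3 DSS arrays lay above all 3 Control arrays for 10516 tested probes (10.68%) and below them for 8096 (8.219%). This was so for 1744 of the probes called higher and 861 of those called lower. The calls leaned on the detection rule, since 741 probes called higher were tested through the DSS arrays alone and 689 called lower through the Control arrays alone. For 139 probes called higher, 0 Control arrays were well above background, and for 290 called lower, 0 DSS arrays were. For such probes a difference has only a lower bound, given below as at least a number of folds, which sets the bright group's mean against the dim group's arrays, each taken at its own value or at the lowest value well above background on that array, whichever was higher. Where only some arrays of the dim group were well above background, their number is given, and the difference includes values near the floor and is not a measured size. In both cases the SE and p take floor values as if measured. For such genes, rose or fell therefore rests partly on a spread at the floor. The normexp background correction, an alternative that shrinks the differences of dim probes, left 64 of the 122 named genes called higher and 18 of the 27 called lower with at least a 2-fold difference, and genes described below that lost it are named there.

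A gene symbol was available for 174 tested genes, from supplementary sheets of the study and from primers that lie inside a probe. Limma called 119 of them higher and 26 lower, and 32 rose and 9 fell after adjustment. The sheets list probes that the authors had selected on these same arrays, so neither this share nor the direction of a gene is independent evidence, and the counts for gene lists below carry the same limit. A further 155 tested genes were named by probes that begin over an annotated transcription start, a step added after the data were seen. These had not been selected for a difference, and 3 were called higher and 1 lower (2.58%), with a median difference of -0.12 against 1.59 for the genes named in sheets or by primers. Counts and medians of the lists below are to be read beside the 119 and 26 of 174 and this 1.59.

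Lectins of the Reg3 family were called higher. Reg3g, a secreted C-type lectin that binds Gram-positive bacteria at the epithelial surface, measured 13.54, 8.35 and 11.48 on the Control arrays and 15.75, 15.43 and 17.32 on the DSS arrays. The Control arrays were spread over more than 5 log2 units, and Control 2 was the lowest, yet the groups did not overlap. The difference was 5.04 ± 1.19 (SE), called higher but not past the adjustment (adjusted p = 0.143), and 4.63 within slide 1. Its relative Reg3d measured 6.49, 1.27 and 2.79 in Control, where 1 array was well above background, and 8.77, 7.71 and 11.03 in DSS, a difference of 5.65 ± 1.41 (adjusted p = 0.163). DSS 3 was the highest array for both lectins. Within slide 1, Reg3d differed by 5.25 but was no longer called with slide as a block.

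Named genes of plasma and acute-phase proteins were called higher one by one, and 1 of them passed the adjustment. Hp encodes haptoglobin, the plasma protein that captures free hemoglobin, and measured 6.94, 6.81 and 7.63 in Control and 11.93, 12.43 and 9.55 in DSS. DSS 3 lay more than 2 log2 units below the other 2 DSS arrays but above every Control array, and the difference was 4.18 ± 0.94 (adjusted p = 0.132). Kng1, which encodes the kininogen from which bradykinin is cut, was well above background on 0 Control arrays (1.98, 2.72 and 1.45) and measured 5.13, 5.87 and 7.63 in DSS, at least 9.4-fold higher (adjusted p = 0.0944). Here DSS 3 was the highest array. Kng2, the second kininogen gene of the mouse, measured 3.68, 3.79 and 4.12 in Control against 5.26, 5.56 and 5.48 in DSS and rose by 1.57 ± 0.19 (adjusted p = 0.0368). The probes of Hp and Kng1, shown 5′ to 3′ as they stand on the array because these transcripts are known mainly from liver, were:
Hp: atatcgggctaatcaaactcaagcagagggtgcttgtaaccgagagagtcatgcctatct
Kng1: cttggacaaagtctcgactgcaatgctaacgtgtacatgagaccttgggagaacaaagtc

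Other members of the same list lay between these in size. Complement C3 measured 11.33, 12.04 and 11.01 in Control and 13.91, 14.03 and 12.91 in DSS (difference 2.15 ± 0.38, adjusted p = 0.0747). Saa3, an acute-phase serum amyloid A made in many tissues, measured 6.74, 5.56 and 6.48 in Control against 8.07, 8.71 and 7.62 in DSS, a difference of 1.88 ± 0.37 (adjusted p = 0.101). Wfdc21, a small secreted protein of the whey acidic protein family, measured 5.43, 4.32 and 5.16 in Control against 8.20, 8.11 and 7.37 in DSS. No Control array reached a DSS array for any of these. Differences for Wfdc21, Serpina3m, Itih4 and the fibrinogen chain gene Fga were 2.92, 2.10, 1.97 and 1.71, and the calls of Wfdc21 and Fga were lost with slide as a block. In all, 11 of the 38 genes of the antimicrobial and acute-phase list had a named probe, all 11 were called higher, and 1, Kng2, passed the adjustment. Their median difference was 2.15. Over the 174 tested genes named in sheets or by primers it was 1.59, with 119 called higher, and over all tested probes -0.0365. Under normexp, Kng2, Itih4 and Fga were below 2 fold and the median was 1.60. Of 19 hepatocyte markers, Hp, Kng1, Itih4 and Fga were linked and called higher, and the defining marker Alb had no named probe. Whether the transcripts came from the colon wall or from elsewhere was not tested.

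Several receptors of neutrophils and monocytes were called higher. Clec4d, a C-type lectin receptor of myeloid cells, measured 6.62, 6.19 and 6.76 in Control and 11.13, 11.26 and 9.30 in DSS. The Control arrays lay within 0.57 of each other and DSS 3 was the lowest DSS array. The gene rose by 4.04 ± 0.58 (adjusted p = 0.0484) and by 4.60 within slide 1. Marco, a scavenger receptor of macrophages that takes up bacteria, was at the floor of the Control arrays, with values of 1.20, 1.20 and 1.20 and 0 arrays well above background. In DSS it measured 7.47, 6.88 and 4.89, at least 10.8-fold higher (adjusted p = 0.0657). Its probe, shown because the signal went from undetected to present on every DSS array, was:
Marco: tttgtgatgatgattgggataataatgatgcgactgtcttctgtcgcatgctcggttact

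The formyl peptide receptors Fpr2 and Fpr3, of a family that guides phagocytes toward peptides of bacteria and of damaged mitochondria, were called higher. Fpr2 measured 6.06, 5.07 and 5.65 in Control and 9.68, 9.05 and 8.08 in DSS, a difference of 3.34 ± 0.60 (adjusted p = 0.0787). For Fpr3 the values were 4.06, 4.42 and 3.85 in Control against 7.45, 6.88 and 6.00 in DSS, and the difference was 2.67 ± 0.46 (adjusted p = 0.0728). DSS 1 was the highest and DSS 3 the lowest array for both. Fpr-rs6, another gene of the family, was not well above background in Control and at least 4.71-fold higher in DSS (adjusted p = 0.0698). Signal shared between the probes of this family was not tested. Cxcr2, the receptor through which neutrophils follow CXC chemokines, was well above background on 0 Control arrays, measured 5.31, 5.73 and 3.45 in DSS, and was at least 3.53-fold higher (adjusted p = 0.115). Gpr84, a receptor of medium-chain fatty acids on myeloid cells, measured 3.33, 3.65 and 3.78 in Control against 7.37, 6.78 and 5.54 in DSS (difference 2.98 ± 0.55, adjusted p = 0.0852).

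Several genes of monocytes rose. Ccr2, the receptor that brings inflammatory monocytes into tissue, measured 5.33, 5.07 and 5.14 in Control and 8.27, 7.76 and 7.56 in DSS. The 3 Control arrays lay within 0.26 of each other, and the gene rose by 2.68 ± 0.27 (adjusted p = 0.0333), with 3.09 within slide 1. A second probe of Ccr2 gave 2.60. Itgam, which encodes CD11b, measured 3.88, 4.23 and 4.45 in Control against 6.00, 6.42 and 5.93 in DSS and rose by 1.93 ± 0.19 (adjusted p = 0.0333). Ms4a6b, Ms4a6c and Ms4a6d, membrane proteins of the monocyte lineage encoded side by side, rose by 1.59, 1.59 and 2.03, each with an adjusted p of 0.0333, and a second Ms4a6b probe gave 1.73. Fcgr4 and Fcgr1, Fc receptors for IgG, were called higher with differences of 1.95 and 1.53 (adjusted p = 0.0536 and 0.113), and Clec4a3 with 1.78. The leukocyte immunoglobulin-like receptor genes Lilr4b and Lilrb4a rose by 2.56 ± 0.29 and 2.56 ± 0.23, and Lair1, an inhibitory receptor for collagen, by 2.13 ± 0.22 from a level where 2 Control arrays were well above background, all with an adjusted p of 0.0333. Lilr4b and Lilrb4a are near-identical genes, and signal shared between their probes was not tested.

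Of 35 monocyte and macrophage markers, 10 were linked to a probe, all 10 were called higher, and 5 of them, Ccr2, Itgam and the 3 Ms4a6 genes, passed the adjustment. Their median difference was 1.94. Of 23 neutrophil markers, Clec4d, Fpr2 and Cxcr2 were linked and called higher. The defining neutrophil genes S100a8, S100a9 and Ly6g had no named probe. Of 31 chemokines, 2 were linked. Ccl8, a chemokine for monocytes, measured 12.53, 11.88 and 11.98 in Control against 14.64, 14.39 and 14.11 in DSS and rose by 2.25 ± 0.30 (adjusted p = 0.0407), while Ccl12 was called higher by 1.20 ± 0.39 (adjusted p = 0.255), a call lost without Control 2. All 4 linked chemoattractant receptors of a list of 26, Fpr2, Cxcr2, Ccr2 and Fpr3, were called higher, with a median of 2.81, or 2.68 with Cxcr2 at its bound. Under normexp, this median was 1.40 and that of the monocyte markers 1.47, and Itgam, Lair1, Cxcr2, Fpr-rs6 and Ccl12 were below 2 fold.

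**Figure D2:**
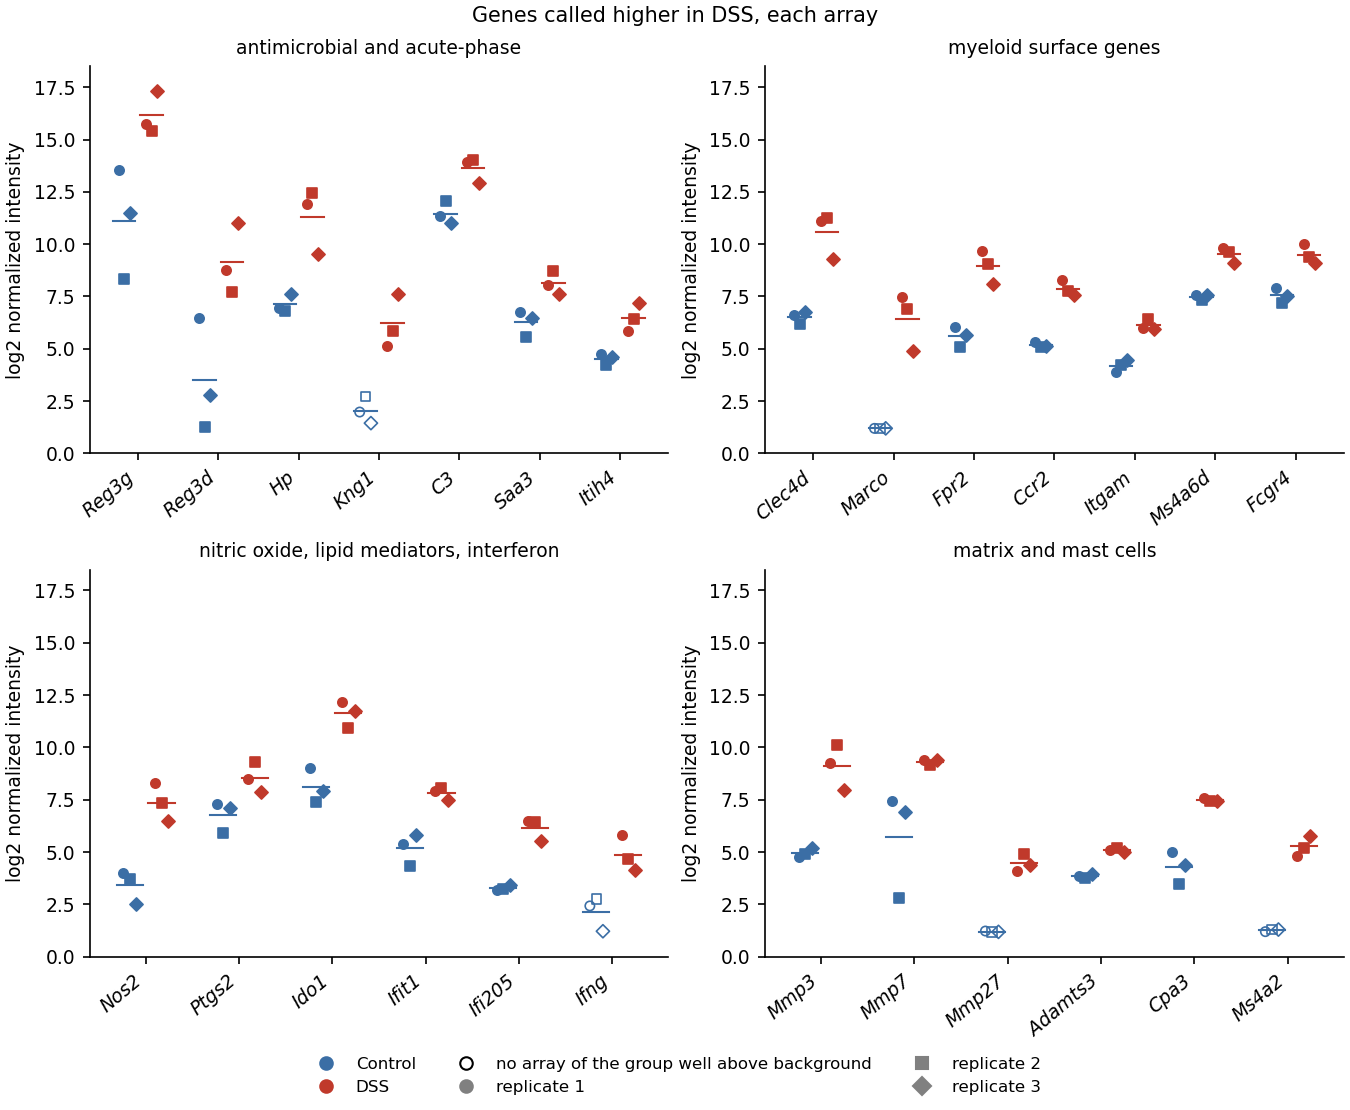
Log2 normalized intensity (y axis) of named genes called higher in DSS, with a point for each Control (blue) and DSS (red) array, marker shapes for replicates 1 to 3 and lines at the group means. Open points mark groups in which 0 arrays were well above background, as for Marco and Ms4a2 in Control, and DSS 3 was the highest DSS array for Reg3g, Reg3d and Kng1 but the lowest for Hp, Clec4d and Marco.

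Enzymes of nitric oxide and lipid mediators were called in both directions. Nos2, the inducible nitric oxide synthase, measured 4.02, 3.73 and 2.52 in Control, where 2 arrays were well above background, and 8.28, 7.33 and 6.49 in DSS. The lowest DSS array exceeded the highest Control array by more than 2 log2 units, and the difference was 3.94 ± 0.64 (adjusted p = 0.0637), or 4.86 within slide 1. Its probe, shown as that of the enzyme most often used to mark inflammatory activation of macrophages, was:
Nos2: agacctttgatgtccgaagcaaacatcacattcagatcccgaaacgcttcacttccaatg
Duox2 and Duoxa2, the hydrogen peroxide generator of the epithelium and its maturation factor, were called higher by 1.47 ± 0.28 and 1.92 ± 0.40 (adjusted p = 0.0971 and 0.113).

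Among lipid enzymes, Ptgs2, the inducible cyclooxygenase, measured 7.30, 5.89 and 7.13 in Control and 8.47, 9.32 and 7.89 in DSS, a difference of 1.79 ± 0.46 (adjusted p = 0.168), and its call was lost with slide as a block. Alox15, a lipoxygenase of eosinophils and macrophages, was called higher by 1.94 ± 0.39 (adjusted p = 0.106). Pla2g7, which inactivates platelet-activating factor, measured 7.15, 7.41 and 7.31 in Control against 8.67, 8.83 and 8.54 in DSS and rose by 1.39 ± 0.15 (adjusted p = 0.0333). Pla2g4c, a cytosolic phospholipase A2, went the other way, with 10.29, 10.18 and 9.15 in Control and 4.45, 4.99 and 4.37 in DSS. Every DSS array was more than 4 log2 units below every Control array, and the gene was called lower with a difference of -5.27 ± 1.04 (adjusted p = 0.101). This SE takes in the spread of the DSS+PAMK arrays, whose values are not given here. Of 31 genes on this list, 9 were linked, 8 called higher and 1 lower, with a median of 1.79. Under normexp, Alox15 was below 2 fold and the median was 1.35.

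The interferon-induced genes that had a named probe were called higher. Ido1, which degrades tryptophan, measured 9.04, 7.38 and 7.94 in Control and 12.19, 10.94 and 11.76 in DSS, a difference of 3.51 ± 0.57 (adjusted p = 0.0628). Ifit1, a protein that binds foreign RNA, measured 5.39, 4.34 and 5.84 in Control against 7.92, 8.04 and 7.50 in DSS (difference 2.63 ± 0.42, adjusted p = 0.0613). Ifi205, of a family of DNA-binding proteins, was well above background on 2 Control arrays, measured 3.19, 3.25 and 3.42 in Control against 6.48, 6.44 and 5.51 in DSS, and rose by 2.86 ± 0.31 (adjusted p = 0.0333). Groups did not overlap for any of the 3 genes. Ifitm1, Ifi47, Oasl2 and Ifi204 were called higher by 2.12, 1.82, 1.63 and 1.36. In all, 7 of 48 genes on the list were linked, 7 were called higher, 1 passed the adjustment, and the median was 2.12. Under normexp, Ifi205 and Ifitm1 were below 2 fold and the median was 1.20. The 7 genes averaged 2.62, 2.32 and 1.89 above the Control mean on DSS arrays 1 to 3.

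The bases before the annotated starts of these genes were searched on both strands for GAAA, any 2 bases and GAAA again, the core of the interferon-stimulated response element. RefSeq windows of 250 bases upstream, on the GRCm38.p6 build, were at hand for 5 of the 7 genes, and 2 of them, Ifit1 and Ifi205, held the motif, against 2.98% of all 32851 windows. The genes had been listed as interferon-induced, so the share over all windows is given for scale and an enrichment was not tested. A match describes letters and not binding, and the windows without it say nothing about other sites. The windows of both genes, on the strand of the gene and with the motif in capitals, were as follows. That of Ifit1 was chr19:34640639-34640888 on the plus strand and that of Ifi205 chr1:174031756-174032005 on the minus strand.
Ifit1: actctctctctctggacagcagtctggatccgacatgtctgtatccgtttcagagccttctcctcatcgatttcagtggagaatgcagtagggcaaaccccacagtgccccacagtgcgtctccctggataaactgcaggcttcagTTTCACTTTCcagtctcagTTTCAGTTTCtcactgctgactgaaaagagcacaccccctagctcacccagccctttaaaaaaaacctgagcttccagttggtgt
Ifi205: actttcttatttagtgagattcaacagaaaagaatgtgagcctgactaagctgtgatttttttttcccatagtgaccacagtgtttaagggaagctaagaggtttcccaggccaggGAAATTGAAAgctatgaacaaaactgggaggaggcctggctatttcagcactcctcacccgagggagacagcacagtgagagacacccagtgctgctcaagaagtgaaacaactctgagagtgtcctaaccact

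Interferon gamma itself, Ifng, was well above background on 0 Control arrays (2.43, 2.76 and 1.22) and measured 5.80, 4.66 and 4.13 in DSS, at least 3.67-fold higher (adjusted p = 0.0824). Il33, an alarmin released by damaged cells, measured 9.09, 8.83 and 8.60 in Control against 10.91, 11.18 and 10.06 in DSS, a difference of 1.88 ± 0.31 (adjusted p = 0.067). Il18, an epithelial cytokine, was not called, with 12.35, 13.75 and 12.50 in Control and 13.86, 13.37 and 13.37 in DSS (difference 0.67 ± 0.37, adjusted p = 0.466). Control 2 lay within the range of the DSS arrays, and the 2 groups overlapped. Without Control 2, Il18 differed by 1.11 and was called higher. Il11, linked by its start, differed by 0.59 ± 0.27 and was not called. Il17a was not tested, since 1 Control array and 2 DSS arrays were well above background, and it measured 3.17, 3.30 and 3.02 in Control against 5.39, 5.78 and 3.11 in DSS. Il4 and Il1rn, linked by their starts, were well above background on 0 of the 6 arrays. Of 36 cytokine genes, 7 were thus linked and 4 tested, and genes such as Tnf, Il1b and Il6 had no named probe.

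Proteases of the extracellular matrix were called higher, each with separate groups. Mmp3, or stromelysin 1, which cuts many matrix proteins and activates other metalloproteinases, measured 4.76, 4.90 and 5.22 in Control and 9.25, 10.13 and 7.98 in DSS. It rose by 4.16 ± 0.51 (adjusted p = 0.0374) and by 4.29 within slide 1. Mmp7, or matrilysin, was well above background on 2 Control arrays, measured 7.42, 2.79 and 6.94 in Control against 9.38, 9.17 and 9.39 in DSS, a difference of 3.59 ± 1.05 (adjusted p = 0.214), and its call was lost with slide as a block. The DSS arrays lay within 0.22 of each other, while Control 2 lay more than 4 log2 units below the other Control arrays. Mmp27 was not well above background in Control (1.23, 1.19 and 1.19), measured 4.10, 4.93 and 4.38 in DSS and rose at least 2.81-fold (adjusted p = 0.0333). The probe of Mmp3, shown as the metalloproteinase with the largest measured rise, was:
Mmp3: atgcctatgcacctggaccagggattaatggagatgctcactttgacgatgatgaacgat
Adamts3, which trims procollagen, rose by 1.24 ± 0.15 (adjusted p = 0.0333), from 3.86, 3.75 and 3.95 to 5.09, 5.18 and 5.01. Serpine2, an inhibitor of serine proteases, was called higher by 1.65 ± 0.39, a call lost with slide as a block. All 5 linked genes of 37 were called higher, and 3 passed the adjustment, Mmp27 among them with Control values at the floor. The median was 3.27, or 1.65 with Mmp27 at its bound. Without Control 2, the difference of Mmp7 and the median of the list both dropped to 2.14. Under normexp, the median was 1.41, and Mmp27, Adamts3, Prrx1 and Apod were below 2 fold. Of 23 fibroblast markers, C3, Prrx1 and Apod were called higher by 2.15, 1.58 and 1.16, the call of Apod being lost without Control 2 and with slide as a block, and Il11 was not called. The defining fibroblast genes Col1a1, Dcn and Pdgfra had no named probe. Rspo1, a Wnt agonist of the stem cell niche, measured 7.73, 7.60 and 7.12 in Control against 8.63, 9.70 and 8.56 in DSS (difference 1.48 ± 0.31, adjusted p = 0.113), and with Il33 and Ptgs2 it made up the 3 linked genes of 39 on the Wnt and niche list, all called higher.

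Mast cell, eosinophil and lymphocyte genes were few. Cpa3, the carboxypeptidase of mast cell granules, measured 5.01, 3.49 and 4.38 in Control and 7.58, 7.43 and 7.44 in DSS. The DSS arrays lay within 0.15 of each other, and the gene rose by 3.19 ± 0.33 (adjusted p = 0.0333), with 3.29 within slide 1. Ms4a2, the beta chain of the high-affinity IgE receptor, was not well above background in Control (1.20, 1.30 and 1.30), measured 4.82, 5.22 and 5.79 in DSS and rose at least 4.92-fold (adjusted p = 0.0333). A brighter probe over the annotated start of Ms4a2 differed by -0.19 and was not called, so the 2 probes of this gene disagree. The call of the probe of Ms4a2 was lost under normexp. The probe of Cpa3, shown as the mast cell gene detected in both groups, was:
Cpa3: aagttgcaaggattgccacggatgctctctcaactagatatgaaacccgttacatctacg
These were the 2 linked genes of 15 mast cell markers, and Kit and the tryptase genes had no named probe. Rnase2a, an eosinophil ribonuclease, measured 4.45, 4.71 and 3.97 in Control, was well above background on 0 DSS arrays (1.45, 1.22 and 1.21), and fell at least 1.94-fold (adjusted p = 0.0333). This bound is short of the 2-fold threshold, the DSS values lie at the floor, and with the normexp background correction the difference was -0.50, so the size of the fall is not known. With Alox15, called higher, it made up the 2 linked genes of 11 eosinophil markers.

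Of 29 markers of T and NK cells, 4 were linked. Gzmb, the granzyme of cytotoxic cells, measured 6.97, 4.79 and 5.04 in Control and 7.78, 7.75 and 8.02 in DSS, a difference of 2.25 ± 0.55 (adjusted p = 0.157). Klri1, a receptor of NK cells, rose by 1.48 ± 0.20 (adjusted p = 0.0409), and Ifng was called higher. Nkg7, a granule protein of cytotoxic lymphocytes, went the other way, with 14.75, 14.78 and 14.67 in Control against 13.74, 13.40 and 13.70 in DSS, a difference of -1.12 ± 0.24 (adjusted p = 0.115). Within slide 1 it differed by -0.99, less than 2 fold. The defining T cell genes Cd3d, Cd3e and Cd3g had no named probe. Foxp3, the transcription factor that defines regulatory T cells, measured 4.90, 4.48 and 4.54 in Control against 6.26, 6.50 and 6.39 in DSS. The DSS arrays lay within 0.24 of each other and above every Control array, and the gene rose by 1.74 ± 0.18 (adjusted p = 0.0333), with 1.62 within slide 1. It was the tested gene of the 32 on the list of Th17 and Treg genes. Ifng, Klri1 and Foxp3 were below 2 fold under normexp.

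The largest falls among the named genes were those of Mptx1 and Mptx2. They encode mucosal pentraxins, secreted by the epithelium and thought to bind bacteria. Mptx1 measured 16.62, 17.31 and 17.12 in Control and 11.80, 8.61 and 9.49 in DSS, and Mptx2 measured 15.93, 16.09 and 15.97 in Control against 11.13, 7.80 and 8.90 in DSS. All DSS arrays were more than 4 log2 units below all Control arrays, and DSS 1 was the highest of them for both genes. Mptx1 fell by 7.05 ± 0.88 (adjusted p = 0.0374) and Mptx2 by 6.72 ± 0.86 (adjusted p = 0.0385), on the log2 scale. Within slide 1 the differences were -5.22 and -4.86, since DSS 1 stands alone there. The 2 genes are close paralogs, and signal shared between their probes was not tested.

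Itln1, intelectin 1, a lectin of goblet and Paneth cells that binds microbial sugars, measured 15.32, 15.08 and 15.63 in Control and 8.94, 9.68 and 11.16 in DSS. The Control arrays lay within 0.55 of each other and DSS 1 was the lowest array. The difference was -5.42 ± 1.11, called lower but not past the adjustment (adjusted p = 0.109), and -6.41 within slide 1. Spread among the DSS+PAMK arrays also enters this SE and p. Fcgbp, a large glycoprotein of goblet cell mucus, measured 14.25, 14.49 and 14.33 in Control against 12.58, 12.74 and 12.93 in DSS, a difference of -1.60 ± 0.30 (adjusted p = 0.0845). St3gal4, a sialyltransferase that caps glycans, measured 11.91, 12.92 and 11.61 in Control against 9.99, 9.97 and 9.74 in DSS and fell by 2.25 ± 0.31 (adjusted p = 0.0444), and its second probe gave -1.62. St3gal6 was called lower by 1.17 ± 0.23, with -0.84 within slide 1, and its call was lost without Control 2. All 6 linked genes of 33 on the mucus and goblet list were called lower, 3 passed the adjustment, and the median was -3.83. Fcgbp was the linked gene of the 14 goblet cell markers, and Muc2, Tff3 and Clca1 had no named probe. The probe of Itln1, shown as that of a transcript that was bright in Control, was:
Itln1: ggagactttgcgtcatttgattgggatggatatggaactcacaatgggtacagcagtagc

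A trio of genes known from the exocrine pancreas fell. Pnliprp2, a pancreatic lipase that digests galactolipids, measured 12.23, 12.52 and 11.38 in Control and 6.73, 6.82 and 6.27 in DSS. It fell by 5.43 ± 0.68 (adjusted p = 0.0374), with -5.31 within slide 1. Clps, colipase, measured 14.36, 14.07 and 14.10 in Control against 11.47, 11.10 and 11.46 in DSS and fell by 2.84 ± 0.35 (adjusted p = 0.0374). Every array of a group lay within 0.37 of the others for Clps. Pnliprp1 measured 6.06, 6.93 and 5.17 in Control, was well above background on 0 DSS arrays, and fell at least 6.12-fold (adjusted p = 0.0475), though under normexp it differed by -0.90. Ctrl, a pancreatic protease linked by its start, was well above background on all 6 arrays and differed by 0.07 ± 0.23. These were the 4 linked genes of 24 pancreatic markers, and the defining genes Prss1, Cpa1 and Pnlip had no named probe. Whether pancreatic tissue was present in the samples was not tested. The probes of Pnliprp2 and Clps, shown because both were detected in both groups, were:
Pnliprp2: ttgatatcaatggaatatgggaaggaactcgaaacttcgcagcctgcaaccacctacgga
Clps: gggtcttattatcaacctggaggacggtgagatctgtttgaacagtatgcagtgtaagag

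**Figure D3:**
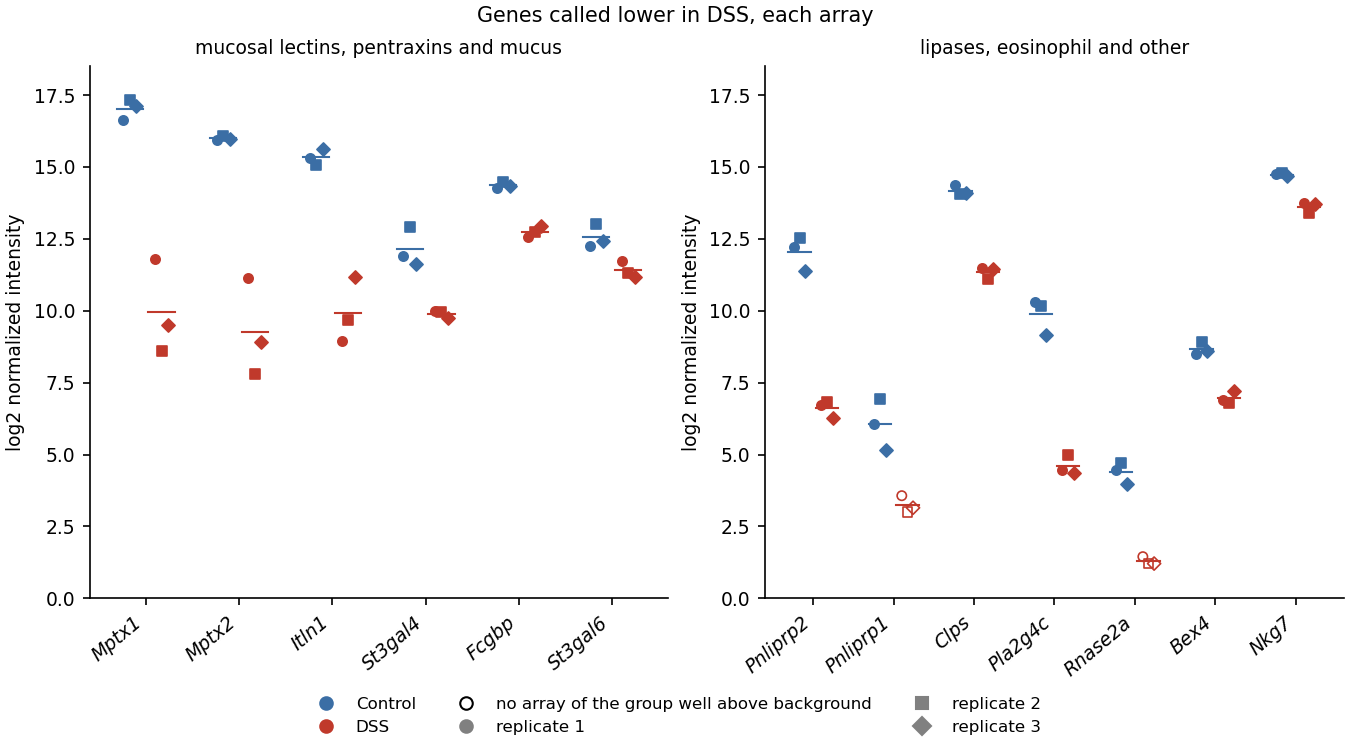
Log2 normalized intensity (y axis) of named genes called lower in DSS, with a point for each Control (blue) and DSS (red) array, marker shapes for replicates 1 to 3 and lines at the group means. Open points mark groups with 0 arrays well above background, as for Rnase2a and Pnliprp1 in DSS, and the 2 groups are separate for each gene drawn.

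Smaller decreases were spread over genes with other roles. Bex4, a gene on the X chromosome of the brain-expressed X-linked family, measured 8.48, 8.90 and 8.60 in Control against 6.91, 6.78 and 7.20 in DSS and fell by 1.70 ± 0.19 (adjusted p = 0.0333), with -1.75 within slide 1. The predicted gene Gm49965, measured on 3 Control arrays and 2 DSS arrays above background, fell by 1.74 ± 0.22 (adjusted p = 0.0385). Crisp3, a cysteine-rich secretory protein, and Fam221a were called lower, with differences of -1.94 ± 0.48 and -1.93 ± 0.34. Scin, which severs actin filaments, and Grpr, the receptor of gastrin-releasing peptide, differed by -1.59 ± 0.28 and -1.41 ± 0.30. Mcu, the calcium channel of the inner mitochondrial membrane and the linked gene of 38 on the respiration list, measured 8.68, 8.40 and 8.12 in Control against 7.03, 6.90 and 7.09 in DSS (difference -1.39 ± 0.24, adjusted p = 0.0717). The calpain Capn13, the SUMO protease Senp5, Dcun1d3 and Osbpl6 were called lower by 1.63, 1.49, 1.25 and 1.04. E330009J07Rik was called lower too, from 7.81, 8.17 and 8.05 to 6.96, 6.95 and 6.81 (adjusted p = 0.09). With slide as a block, Capn13, Senp5 and Dcun1d3 were no longer called, and the call of Osbpl6 was lost without Control 2 or DSS 1. Gm49965, Crisp3, Grpr, E330009J07Rik and Osbpl6 were below 2 fold under normexp.

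Genes of ion transport were called in both directions. Slc26a3, the chloride-bicarbonate exchanger that defines surface colonocytes and the linked gene of 28 colonocyte markers, measured 12.84, 13.34 and 12.84 in Control and 12.84, 12.46 and 12.43 in DSS. It was well above background on all 6 arrays and was not called, with a difference of -0.43 ± 0.19 (adjusted p = 0.375). Scnn1b, the beta subunit of the epithelial sodium channel, measured 8.85, 8.29 and 8.69 in Control against 10.04, 9.76 and 10.12 in DSS and was called higher by 1.37 ± 0.29 (adjusted p = 0.117). Trpm6, a magnesium channel, was called lower with a difference of -1.11 ± 0.34, and the call was lost without Control 2 or DSS 3, with slide as a block and under normexp. With these, 3 of 36 transport genes were linked, and Slc26a3 was the middle one, so that the median was -0.43. With 1 array left out, this median lay between -0.56 (without DSS 1) and -0.26 (without Control 2). Within slide 1 it was -0.16.

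Cyp7b1, an oxysterol hydroxylase, measured 6.83, 6.76 and 7.16 in Control against 8.79, 9.14 and 8.44 in DSS and rose by 1.87 ± 0.23 (adjusted p = 0.0368). Aldh1a3, which makes retinoic acid, was called higher by 1.81 ± 0.33. Aoc1, the diamine oxidase of the epithelium, was not called (10.39, 12.12 and 10.74 in Control, 10.88, 10.69 and 10.54 in DSS). Its difference was -0.38 ± 0.39, and it turned to 0.13 without Control 2, the highest array. These were the 3 linked genes of 50 on the xenobiotic and steroid list. Of 43 genes of fatty acid oxidation, Acat3 rose by 1.21 ± 0.15 (adjusted p = 0.0365, 0.47 under normexp), the peroxisomal oxidase gene Acox2 was called higher by 2.02 ± 0.46 (adjusted p = 0.135), and Acsm3 differed by 0.03 ± 0.26, with a sign that changed between settings. Ddit3 of the unfolded protein response, linked by its start, differed by -0.52 ± 0.14 and was not called.

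Markers of tissues next to the colon were also among the genes called. Of 20 skeletal muscle markers, Myot and Asb5 were linked. Myot, the sarcomere protein myotilin, measured 4.21, 2.83 and 2.84 in Control, where 1 array was well above background, and 7.33, 6.81 and 6.70 in DSS, a difference of 3.65 ± 0.60 (adjusted p = 0.0655). Asb5 differed by 1.07 ± 0.18, and Acta1 and Ckm, which define the tissue, had no named probe. Of 28 markers of stratified squamous epithelium, Lce3a, Lce3b, Prss27 and Lypd3 were linked and called higher, by 1.87, 1.87, 1.86 and 1.72 (adjusted p = 0.0501, 0.127, 0.062 and 0.0883). These 4 averaged 2.14, 2.01 and 1.35 above the Control mean on DSS arrays 1 to 3 (Lce3a was well above background on 2 Control arrays), and Krt5 and Krt14 had no named probe. Asb5, Lce3a, Lce3b and Lypd3 were below 2 fold under normexp. Mmp7 and Itln1, of 23 markers of Paneth cells and the small intestine, moved in opposite directions, and Lipe, of 20 adipocyte markers, was not called (-0.11 ± 0.37). The part of neighboring tissue in these differences was not tested. No gene of 13 lists had a named probe, among them epithelial junctions, IL-6/STAT3 signalling, antigen presentation, cell cycle, B and plasma cells, smooth muscle, endothelium and the housekeeping controls.

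Among other genes called higher, Dnase1, the secreted deoxyribonuclease, measured 1.90, 3.78 and 1.68 in Control, where 1 array was well above background, and 5.76, 5.61 and 7.02 in DSS (difference 3.67 ± 0.62, adjusted p = 0.0685). Fer1l4 differed by 3.52 ± 0.65, with 1 Control array above background, and Gm4841 was at least 3.52-fold higher (adjusted p = 0.0333). Myl7, an atrial myosin light chain, measured 8.34, 6.13 and 7.85 in Control against 10.69, 10.77 and 9.86 in DSS (difference 3.00 ± 0.53, adjusted p = 0.0765). Ren1, which encodes renin, was well above background on 1 Control array, measured 2.83, 3.31 and 3.45 in Control against 5.88, 6.95 and 5.29 in DSS and rose by 2.84 ± 0.41 (adjusted p = 0.0484). Trim40, Ipcef1 and Rab44, chosen after their values were seen, rose by 1.84, 1.78 and 2.42 (adjusted p = 0.0333, 0.0335 and 0.0385). Of the genes named by their starts, also chosen after their values were seen, Slfn4 was at least 2.32-fold higher, Gm42215 and Ptprc, which encodes the leukocyte antigen CD45, were called higher by 1.46 and 1.13, and Nr6a1 was at least 1.4-fold lower. On the Control arrays, Gm42215 was well above background on 1 and Ptprc on 2. The call of Ptprc was lost without DSS 1, that of Gm42215 without Control 1 or DSS 2 and with slide as a block, and that of Nr6a1 when Control 2, DSS 1, DSS 3 or any DSS+PAMK array was left out. Under normexp these 4 genes named by their starts and Dnase1, Fer1l4, Gm4841, Ren1 and Ipcef1 were below 2 fold.

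Most called probes had no name here. Among unnamed probes detected on each of the 6 arrays, the largest difference upward was that of mclstr_131987_80_8, which lay at 4.73, 3.93 and 4.71 in Control and at 12.59, 12.38 and 8.68 in DSS, and the largest downward that of mclstr_81224_290_18, which lay at 9.04 or above in Control and at 4.53 or below in DSS. For mclstr_134889_90_6, 0 Control arrays were well above background, and the probe was at least 98.7-fold higher in DSS (adjusted p = 0.105). By class of probe name, 2.18% of 85397 probes with the mclstr prefix were called higher and 1.18% lower. Of 9525 probes named from the circular RNA database CIRCpedia, 0.735% and 0.315% were called, and of 3583 with the prefix mmu_circ, 0.447% in each direction. The median GC content of probes called higher was 45%, against 46.7% among all tested probes. Whether the classes differ beyond their signal was not tested.

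The DSS arrays differed among themselves. Of the 122 named genes called higher, DSS 3 had the lowest DSS value for 85, DSS 2 for 23 and DSS 1 for 14, and of the 1947 probes called higher, DSS 3 was the lowest for 1167. Relative to the Control mean, the median probe called higher lay at 1.49 on DSS 1, 1.5 on DSS 2 and 1.20 on DSS 3. DSS 3 was the highest for 24 of the named genes, among them Reg3g, Reg3d, Kng1, Itih4 and Fga. Among the probes called lower, DSS 1 was the lowest for 626, with a median of -1.67, against -1.11 on DSS 2 and -1.12 on DSS 3. The 27 named genes called lower did not follow this order, since DSS 1 was the lowest DSS array for 8 and the highest for 13. No separate record of colitis severity for each array was used here, so its relation to this order was not tested. The median SD of a tested probe was 0.272 over the Control arrays and 0.293 over the DSS arrays.

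Within slide 1, all 122 named genes called higher and all 27 called lower kept their direction. For 122 and 26 of them this followed from groups that did not overlap, so it is no further test. With slide as a block, 15 and 6 of them were no longer called. Over all probes, the block gave 2905 higher and 6803 lower, so that 29.9% of the calls were higher, against 64.9% without it, and a fit of the slide 1 arrays alone gave 2761 and 6273. Arrays aligned at the 75th percentile, without quantile normalization, gave 1407 higher and 2932 lower, or 32.4% higher. The balance between the directions therefore depended on the processing. The 122 and 27 named genes kept their direction under that alignment. They had been called at 2 fold or more on these same arrays, so this is no further test. The alignment ended the calls of Adamts3, Nkg7, St3gal6, Acat3, Asb5, Dcun1d3, Ptprc and Gm42215, and 76 list genes were called in place of 81. Of the adjusted calls, the slide block gave 65 higher and 430 lower, the reverse of the balance without it.

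**Figure D4:**
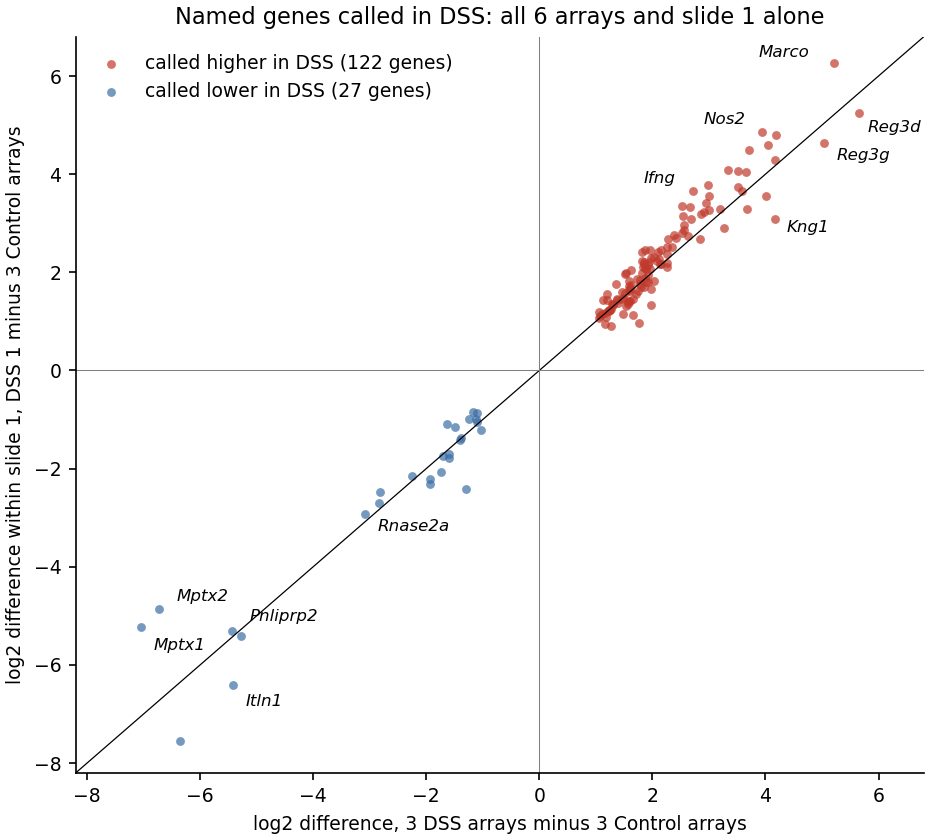
Log2 difference of the named genes called higher (red, 122 genes) or lower (blue, 27 genes), over all 6 arrays (x axis) and within slide 1, DSS 1 minus the 3 Control arrays (y axis). Each point is a gene, the diagonal marks equal differences, and DSS 1 and the Control arrays enter both axes, so the sign is shared wherever the groups do not overlap.

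The number of adjusted calls changed with the arrays included. Leaving out any Control array or DSS 1 left 0 adjusted calls by limma, with 10287 to 15642 probes at an unadjusted p of at most 0.05, leaving out DSS 2 left 14, and leaving out a DSS+PAMK array left 1 to 104, whereas 275 passed without DSS 3. The 188 adjusted calls and the words rose and fell therefore hold for all 9 arrays together, and the weight of a single array and the loss of precision with fewer arrays cannot be told apart. At the threshold of the methods, 112 of the 122 named genes called higher and 23 of the 27 called lower were called whichever array was left out. The count of probes called lower went to 1677 to 2143 when Control 2, Control 3 or a DSS array was left out.

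**Figure D5:**
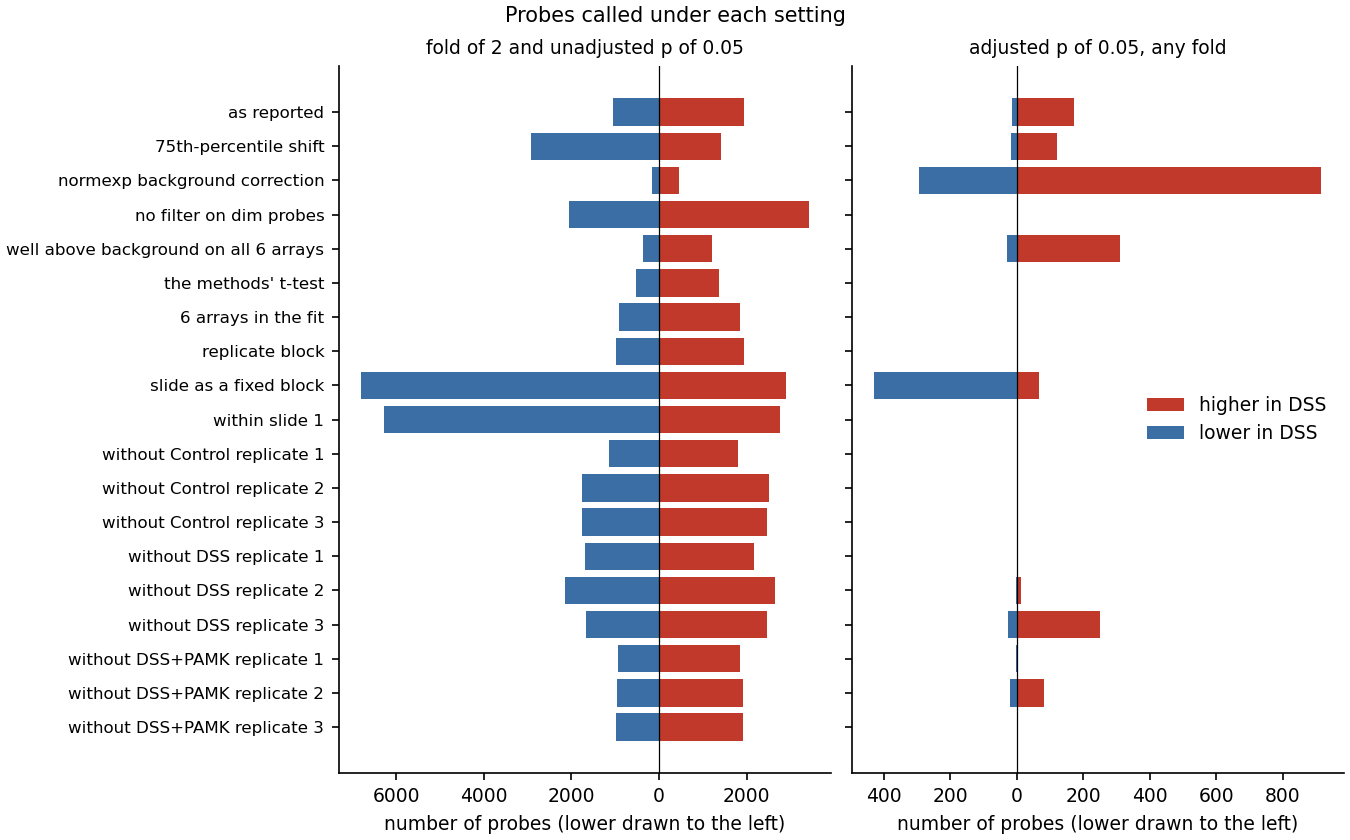
Number of probes (x axis, lower drawn to the left) called higher (red) or lower (blue) in DSS under each setting (y axis), at the threshold of the methods (left) and after Benjamini-Hochberg adjustment (right). The uppermost bars are the 1947 and 1052 probes, and the 172 and 16, as reported, and several settings have no bar on the right because 0 probes passed.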

How the data were processed

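For every 1-color array the authors deposited the intensity of each spot from Agilent Feature Extraction 10.7.1.1. It is on a linear scale, had its background removed and its spatial trend divided out, and holds a surrogate where a spot did not exceed background. Samples were grouped by their labels.

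Control spots and 318 to 430 outlier spots per array were left out. Spots of a probe were averaged as log2 values (10 for 998 probes, 1 for the others) and quantile normalized over 9 arrays. Group means were fitted with limma 3.58.1 in R 4.3.3 (6 residual and 2.54 prior degrees of freedom). The procedure was tested on simulated data. Figures were drawn with matplotlib 3.10.9.

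Symbols came from sheets that pair 181 probes with 174 genes, from 2 of 21 primers searched, and from 360 probes matching at least 30 bases at an annotated start. Of 528 symbols, 527 were in the gene tables. The brightest sheet or primer probe stood for a gene. The text names the 25 largest rises and falls among called genes whose groups did not overlap, list members and genes of the study's qRT-PCR. Of these, 3 are not reported here. Members and lists were chosen with earlier results of these data known. Lists were given no test.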

Additional observations from a re-analysis of the deposited data

How the results depend on the processing

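The 9 alternatives of processing, the 9 arrays left out in turn and 2 choices of naming gave the following. A normexp background correction (offset of 50) lowered the calls to 460 probes higher and 155 lower but raised the adjusted calls to 1211, and 64 of the 122 named genes called higher and 18 of the 27 called lower still differed by at least 2 fold, with the dimmest shrunken most (Rnase2a -0.50, Marco 1.51). Without the filter on dim probes, 3416 were higher, 2049 lower and 0 past the adjustment, and with probes well above background on all 6 arrays 1214, 367 and 342. Alignment at the 75th percentile gave 2932 lower, the methods' t-test 517 lower and 0 adjusted (1377 higher), and slide as a block 6803 lower and 495 adjusted (65 higher, 430 lower), with 6273 and 0 within slide 1. With only the 6 arrays in the fit, 0 passed the adjustment, with 9846 at an unadjusted p of at most 0.05. Same-numbered Control and DSS arrays did not deviate together (correlations of -0.2, 0.0468 and -0.104, and 0 of 3 correlated best with their own number). With 3 arrays per group, these values cannot decide whether the numbers pair the arrays. The replicate block gave 1932 higher, 982 lower and 0 adjusted (11153 unadjusted). With 1 array left out, the counts were 1811 to 2656 higher, 944 to 2143 lower and 0 to 275 adjusted. The number of list genes called, 81, stayed between 56 and 81 in every alternative. The sign reversed in 11 values, all of uncalled genes, given here before the largest value on the original side with 1 array left out: Acsm3 (-0.02 with normexp, -0.16, -0.10, -0.01 and -0.05 without Control 1, Control 3, DSS 1 and DSS 3, against 0.34 without Control 2), Ctrl (-0.14 with the 75th percentile, -0.10 without Control 2, -0.06 without DSS 1, against 0.25 without DSS 2), Lipe (0.35 without Control 1, 0.08 without DSS 1, against -0.38 without Control 3) and Aoc1 (0.13 without Control 2, against -0.73 without Control 1). Over 115 genes, 2054 of the alternative values kept direction and side of the threshold, 94 lost the call and 1, Il18 without Control 2, gained it. Of the list medians, 298 moved by less than the spread between the DSS arrays and 44 by more. The causes were not tested. Signal over background limits the dim probes.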
